A study of Rattus norvegicus with 6 samples.

Results

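miR-129 is a neuronal microRNA made from a pair of rat hairpins, and its strands were followed in the trigeminal ganglion after injury of the infraorbital nerve. The members are the 3 rows of the deposited count table, of 650 in all, whose name has the stem miR-129: rno-miR-129-5p, rno-miR-129-1-3p and rno-miR-129-2-3p (the prefix for rat is left out from here on). All 3 had at least 1 read in some library, and 2 of 3, miR-129-5p and miR-129-2-3p, passed the filter on low counts that left 463 miRNAs for testing. miR-129-5p was selected on its measured level, which an earlier look at these libraries found lower after injury. The contrast between the groups is therefore a description for all 3 strands, and no p-value is given for them.

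Sprague-Dawley rats aged 8 to 10 weeks were operated on the left side, and small RNA of the trigeminal ganglion on that side was profiled 14 days later. In the CCI-ION group (chronic constriction injury of the infraorbital nerve, 3 libraries) loose silk ligatures were tied around the nerve. In the sham group (3 libraries) the nerve was exposed by the same approach and not tied, so both groups share anaesthesia, incision and nerve exposure. No source used here says whether a library holds 1 animal or several, so the spread between libraries may be partly technical.

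A microRNA hairpin is cut into a duplex of 5p and 3p strands, of which the strand kept by an Argonaute protein guides silencing of messenger RNAs that match its seed, bases 2 to 8. miR-129 is enriched in brain and other neural tissue. In hippocampal neurons its 5p strand is known to repress the potassium channel gene Kcna1 in a manner tied to mTOR signalling, and to take part in the weakening of synapses under prolonged high activity. In the trigeminal ganglion the somata of facial sensory neurons lie among satellite glia, Schwann cells, fibroblasts, vessel cells and leukocytes.

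The mature sequences show why 5p reads cannot be traced to a hairpin and why the 3p rows are hard to separate. They are given as deposited, with the seed in capitals.
miR-129-5p: cTTTTTGCggtctgggcttgc
miR-129-1-3p: aAGCCCTTaccccaaaaag
miR-129-2-3p: aAGCCCTTaccccaaaaagcat
The seed of miR-129-5p, with its run of T, was shared by 0 of the other rows, and the seed of the 3p strands only by the 3p strands themselves. Outside the family, the closest of 647 rows were 9 edits away from miR-129-5p (miR-103-1-5p) and 10 edits away from miR-129-2-3p (miR-1249). Within the family, the deposited miR-129-1-3p is 19 bases long and equals the first 19 bases of the 22-base miR-129-2-3p.

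The hairpins are shown for the position of each strand, as RefSeq gives them on the build GRCr8, with the mature strands in capitals.
Mir129-1: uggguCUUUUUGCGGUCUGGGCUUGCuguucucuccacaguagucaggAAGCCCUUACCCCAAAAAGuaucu
Mir129-2: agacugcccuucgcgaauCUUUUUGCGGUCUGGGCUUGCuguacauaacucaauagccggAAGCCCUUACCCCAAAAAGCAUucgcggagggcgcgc
Mir129-1 has 72 bases and lies on the plus strand of chromosome 4. It overlaps the long non-coding RNA gene LOC120102250, and its nearest protein-coding genes are Snd1 and Lep. Mir129-2 has 97 bases and lies on the minus strand of chromosome 3, between the protein-coding genes Hsd17b12 and Ttc17, with no annotated gene over it. The same 21-base miR-129-5p is at bases 6 to 26 of Mir129-1 and at bases 19 to 39 of Mir129-2. In the predicted folds (RNAfold) 16 of its 21 bases pair with the 3p strand in either hairpin. Counted from 1 at the 5′ end of the 3p strand, the first difference between the hairpins within 22 bases is U20C (Mir129-1 has the first base and Mir129-2 the second), and it lies past the end of the annotated miR-129-1-3p. A 3p read of full length from Mir129-1 would thus differ from miR-129-2-3p by a single base, and no source used here says how such reads were counted.

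Some facts of the whole series bear on these values. Libraries held between 6420434 and 12560545 miRNA reads, with CCI-ION libraries 2 and 3 the shallowest, and a floor of 3 reads corresponded to 0.239 to 0.467 CPM (counts per 1000000 miRNA reads). Both libraries numbered 1 stood apart from the rest by their depth, with totals behind the deposited RPM of 24025572 (sham) and 24259518 (CCI-ION) against 13793797 to 15228984 in the other 4. miRNA reads made up 52.3% to 66.6% of that total in sham and 45.4% to 55.8% in CCI-ION, so RPM, which refers to that total, and CPM, which refers to miRNA reads alone, differ in size. Libraries with the same number deviated together from their group means, so a fit with the number as a block is given where it changes a result. The tissue label was checked against miR-182, miR-183 and miR-96, a cluster typical of sensory neurons, whose 5 rows summed to 35141 to 44703 CPM in sham and 34707 to 45644 in CCI-ION.

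miR-129-5p is by far the more abundant strand. The sham libraries, in the order of their numbers, held 19242, 15445 and 15694 of its reads, and the CCI-ION libraries 11326, 4592 and 6739. Scaled by TMM (a library factor that assumes most miRNAs do not change), the sham values were 1445, 1572 and 1575 CPM, and those after CCI-ION 976, 739 and 907 CPM. The sham libraries lay close together and the CCI-ION libraries were all below them, without overlap, CCI-ION library 2 being the lowest. The means were 1531 ± 74.2 and 874 ± 122 CPM (SD, n = 3 each), which puts the injured ganglia at 0.571 times the sham level. The fitted log2 fold change from edgeR was -0.81 ± 0.15 (SE), and counting error was small beside the spread between libraries, since even the shallowest library gave a 95% exact binomial interval of 695 to 736 CPM around 715 (before TMM).

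**Figure D1:**
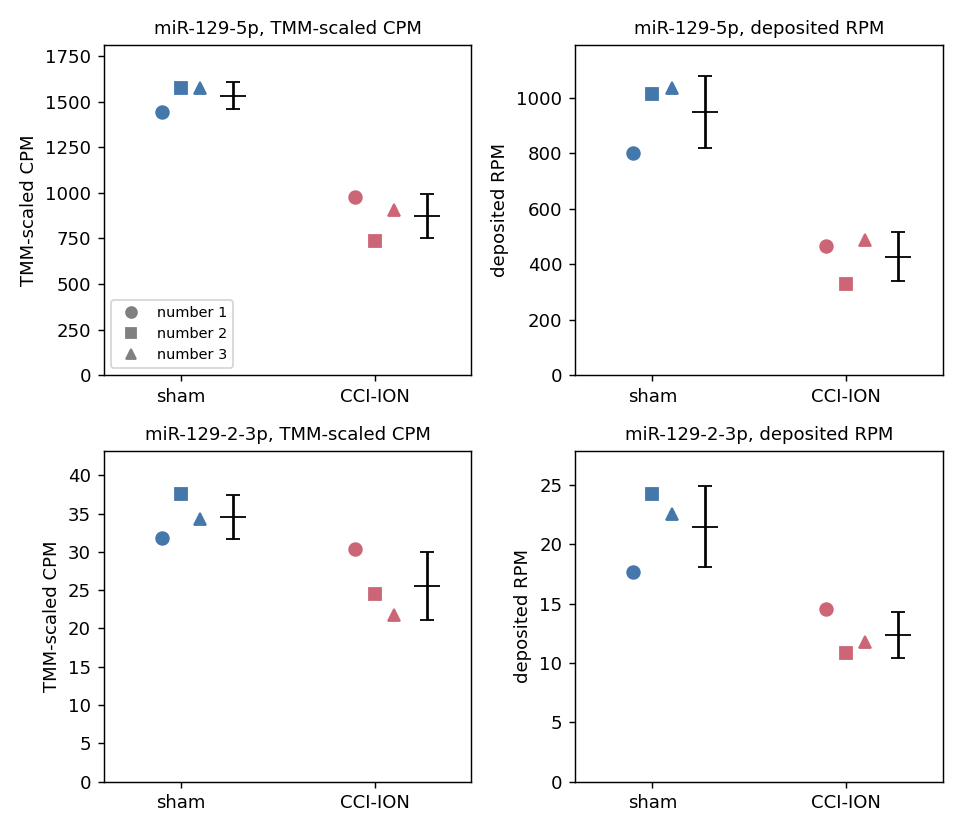
Levels of miR-129-5p (top) and miR-129-2-3p (bottom) in 3 sham and 3 CCI-ION libraries, as TMM-scaled CPM (left) and deposited RPM (right), with marker shapes for the library number and bars for mean ± SD. All CCI-ION points lie below all sham points in each panel, and the groups come closest for miR-129-2-3p in CPM, at 30.4 against 31.8.

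On the scale deposited by the authors, miR-129-5p stood at 801, 1014 and 1036 RPM in sham and at 467, 328 and 489 RPM in CCI-ION. The groups did not overlap there either, and the mean ratio was 0.450. A fit on that scale gave a log2 fold change of -1.15, beside a median of -0.34 over all miRNAs. Within the pairs of libraries that share a number, the CPM ratio of CCI-ION to sham was 0.676, 0.470 and 0.575 for numbers 1 to 3. Since the groups did not overlap, any pairing would give a lower level in CCI-ION. Leaving out both libraries numbered 1, which stand apart in depth, the log2 fold change with the replicate block was -0.95. It was -0.67 without the libraries numbered 2 and -0.83 without those numbered 3.

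In sham libraries miR-129-5p ranked 57th to 59th among all miRNAs by reads, and in CCI-ION libraries 74th to 82nd. Its neighbours by mean level in sham were miR-148b-3p at 1619 ± 445 CPM and miR-434-3p at 1491 ± 188 CPM, and these 3 did not differ beyond their spread. In CCI-ION the neighbours stood at 1461 ± 503 and 1378 ± 128 CPM, with miR-129-5p below every library of both except miR-148b-3p in CCI-ION library 1 (911 CPM, against 976 for miR-129-5p in the same library). Among 463 tested miRNAs 12 had a lower log2 fold change than miR-129-5p. Of the 172 with at least 100 CPM in sham, 1 did, the neuronal miR-7b at -0.92 ± 0.33. In the fit with the replicate block 2 of the 172 did. The edgeR adjusted p of miR-7b was 0.432 without the replicate block and 1.6e-08 with it. Because miR-129-5p was chosen on this fold change, its place in these orders is a description only.

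The 3p strand of the second hairpin was much scarcer. By number, miR-129-2-3p had 424, 369 and 342 reads in the sham libraries and 353, 152 and 162 after CCI-ION. Scaled by TMM, the sham values were 31.8, 37.6 and 34.3 CPM and those after CCI-ION 30.4, 24.5 and 21.8 CPM. The groups did not overlap, but the gap was narrow, since CCI-ION library 1 was just below sham library 1. Before TMM their 95% exact binomial intervals, 28.8 to 35.6 CPM and 30.6 to 37.1 CPM, overlapped, so these 2 libraries could not be separated at this depth. The means were 34.6 ± 2.86 and 25.6 ± 4.42 CPM (SD, n = 3 each), with a log2 fold change of -0.43 ± 0.18 (SE). The CPM ratio within numbers was 0.955, 0.651 and 0.635, close to equal in the first. Here too any pairing would give a lower level in CCI-ION, since the groups did not overlap. With the replicate block and without the libraries numbered 1, the log2 fold change was -0.64. It was -0.34 without the libraries numbered 2 and -0.34 without those numbered 3. In RPM the strand stood at 17.6, 24.2 and 22.6 in sham and at 14.6, 10.8 and 11.7 in CCI-ION.

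In sham its neighbours by level were miR-543-3p at 35.0 ± 4.56 CPM and miR-138-2-3p, a partner strand of neuronal miR-138, at 34.2 ± 0.903 CPM, and these did not differ from miR-129-2-3p beyond their spread. In CCI-ION miR-543-3p stood at 42.9 ± 10.1 CPM and miR-138-2-3p at 26.8 ± 2.36 CPM. Neither passed the edgeR test, whether fitted with the block (adjusted p = 0.234 for miR-543-3p and 0.144 for miR-138-2-3p) or without it (0.789 and 0.482).

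miR-129-1-3p had 2 reads in sham library 1 and 0 in the other 5 libraries. The 2 reads were 0.469% of all 3p reads of that library (95% exact binomial interval 0.0569% to 1.69%). With a count of 0, the same kind of interval reached up to 0.995% and 1.07% of 3p reads in sham libraries 2 and 3. It reached up to 1.04%, 2.40% and 2.25% in CCI-ION libraries 1 to 3, for counting error only. A difference between groups was not detectable at this depth. Because the annotated form is the shorter start of the other 3p strand, this near absence concerns reads assigned to that name and not the output of its hairpin.

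Of the 2 strands that were tested across all miRNAs, 0 were among the 3 calls (0.648% of 463) that edgeR made without the block. With the block 1, miR-129-5p, was among the 54 calls (11.7%). Other settings without the block differed. miR-129-5p was among the 13 calls of DESeq2 (2.81%), the 6 of edgeR under RPM scaling and the 6 of edgeR without the filter. It was not among the 3 of limma-voom (0.648%), and miR-129-2-3p was in none of these. Both strands had groups that did not overlap, lower in CCI-ION, as had 33 of 463 miRNAs (7.13%). Since the choice rests on this contrast, nothing is read from these counts.

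The ratio of the strands within a library does not depend on how libraries are scaled. Sham libraries 1 to 3 held 22.1, 23.9 and 21.8 3p reads per 1000 5p reads, and CCI-ION libraries 1 to 3 held 31.2, 33.1 and 24.0. CCI-ION libraries 1 and 2 were well above the sham libraries, and library 3 was level with sham library 2 within counting error. In shares, 3p reads were 2.17%, 2.33% and 2.13% of the strands in sham, with 95% exact binomial intervals that together ran from 1.91% to 2.58%. They were 3.02% (2.72% to 3.35%) and 3.20% (2.72% to 3.75%) in CCI-ION libraries 1 and 2, and 2.35% (2.00% to 2.73%) in library 3. The mean log2 ratio was higher by 0.37 in CCI-ION, by 0.51 without CCI-ION library 3 and by 0.28 without CCI-ION library 2. Put as levels, the 5p strand was lower after injury by more than its 3p partner, a difference that was not tested because it contains the 5p counts that led to the choice.

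**Figure D2:**
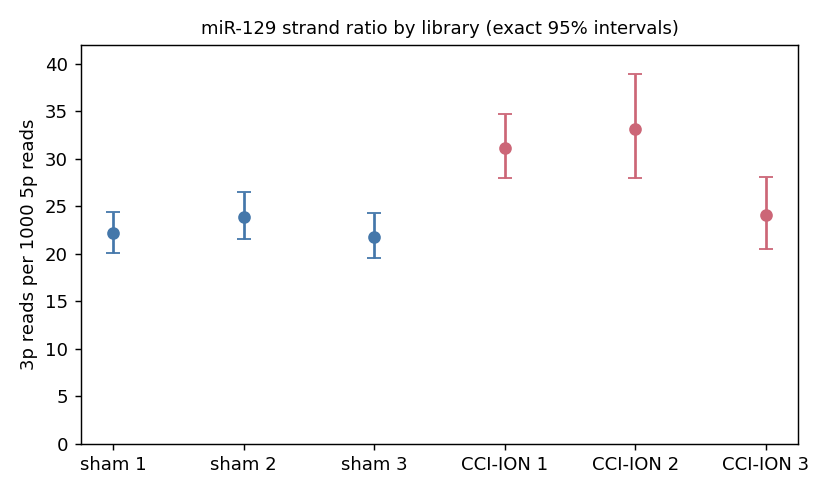
3p reads (miR-129-1-3p plus miR-129-2-3p) per 1000 miR-129-5p reads in each of 6 libraries, with exact 95% binomial intervals for counting error. Sham libraries lie between 21.8 and 23.9 and CCI-ION libraries between 24.0 and 33.1, with CCI-ION 3 at the level of sham.

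Other hairpins give the scale for such a ratio. Both strands were tested for 134 hairpins, counted once for each 5p strand, and the 3p to 5p ratio was computed for each with 0.5 read added. In sham the log2 ratio of miR-129 was 5.47 away from equal strands, against a median of 4.04, and 47 hairpins were more one-sided. The difference between groups in the log2 ratio was 0.37 for miR-129, against a median size of 0.18 over the 134 hairpins, and 22 hairpins had a larger one in either direction. Libraries of the groups did not overlap in this ratio for 10 hairpins (7.46%), miR-129 among them, and for 6 of the 10 the 3p strand gained in CCI-ION. The difference of miR-129 lay within the range of the other hairpins.

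**Figure D3:**
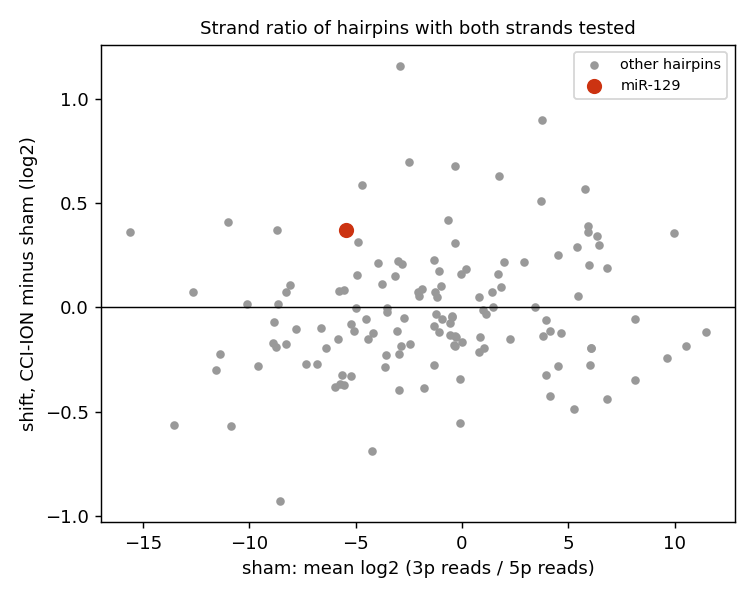
Strand ratio of 134 hairpins: the x axis gives the sham mean of log2 3p over 5p reads, and the y axis the difference in that ratio, CCI-ION minus sham. miR-129 (red) lies left of centre at -5.47, with more 5p than 3p, and above zero at 0.37, within the cloud of the other hairpins (grey).

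Ratios to other neuronal miRNAs are also free of library scaling. For 1000 reads of miR-124-3p, found in nearly every kind of neuron, there were 6100 ± 181 reads of miR-129-5p in sham and 4904 ± 942 in CCI-ION, without overlap (SD, n = 3 each). Per 1000 reads of miR-183-5p, which marks sensory neurons, miR-129-5p had 97.3 ± 4.03 reads in sham and 61.9 ± 12.6 in CCI-ION, also without overlap. Per 1000 reads of miR-9a-5p it had 118 ± 12.4 and 75.2 ± 27.2, again without overlap. Per 1000 reads of miR-7a-5p it had 495 ± 96.2 and 408 ± 112, with overlap. In CPM, 13.8% of the 463 tested miRNAs did not overlap in either direction, and the share for such ratios was not computed. The ratios of miR-129-5p contain the counts that led to the choice, so nothing is read from their lack of overlap. Against the same references the groups overlapped for the 3p strand. miR-129-2-3p had 138 ± 6.30 reads per 1000 of miR-124-3p in sham and 142 ± 15.7 in CCI-ION, and its groups overlapped against miR-183-5p and miR-9a-5p too. In bulk tissue, fewer neurons and less of a miRNA per neuron cannot be told apart.

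The other neuronal miRNAs give the setting in which miR-129-5p was lower. Without miR-129, the list held 31 rows of the stems miR-7a, miR-7b, miR-9a, miR-124, miR-128, miR-132, miR-137, miR-138, miR-153, miR-212, miR-218a, miR-383, miR-488 and miR-598, of which 24 were tested. Their median log2 fold change was -0.29 and 21 of 24 were negative, where over all 463 tested miRNAs the median was 0.01 and 226 were negative. Without the block edgeR called 0 of 24, where it called 0.648% of all 463, and 5 of 24 had an unadjusted p under 0.05, as had 9.94% of all. DESeq2 called 1 of 24, miR-124-3p (adjusted p = 0.048), and 2.81% of all, and limma-voom 0 of 24 and 0.648% of all. All 8 tested skeletal muscle miRNAs were negative as well, with a median of -0.49. With the block edgeR called 8 of 24 lower and 0 higher, where it called 5.62% of all miRNAs lower and 6.05% higher. These blocked calls numbered 0 when both libraries with number 3 were left out, and 3 when those with number 2 were.

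Of the 8, miR-7b had the lowest log2 fold change, with 380, 404 and 238 CPM in the sham libraries and 251, 176 and 112 CPM after CCI-ION. Its groups overlapped while each CCI-ION library was below the sham library of its number, and it differs from miR-7a-5p by 1 edit, so they may share reads. miR-7a-5p, a brake on neuronal signalling proteins such as alpha-synuclein, fell with the block from 3195 ± 779 to 2196 ± 308 CPM, a log2 value of -0.52 ± 0.10 (SE) with an edgeR adjusted p of 6.57e-05. miR-124-3p had 251 ± 9.28 CPM in sham and 180 ± 18.9 CPM after CCI-ION, and its partner miR-124-5p 28.4 ± 5.05 and 20.2 ± 1.54 CPM. Their log2 fold changes with the block were -0.48 ± 0.11 and -0.47 ± 0.16. The adjusted p from edgeR was 0.000927 and 0.0425 with the block, and 0.316 and 0.432 without it. miR-128-3p, a neuronal miRNA known for restraining excitability in the brain, had 4340 ± 423 CPM in sham and 3332 ± 597 CPM after CCI-ION. Its log2 fold change with the block was -0.39 ± 0.10, with an edgeR adjusted p of 0.00244, against 0.496 without the block. The other 3 with the block were miR-218a-5p, miR-138-5p and miR-598-3p, with log2 fold changes of -0.33, -0.31 and -0.36. The most abundant member, miR-9a-5p, had 13124 ± 1893 CPM in sham, 12240 ± 2591 CPM after CCI-ION and no call (edgeR adjusted p with the block 0.525). The activity-regulated miR-132-3p and miR-212-5p had values of 0.06 and 0.09 without the block. Their partner strands, miR-132-5p and miR-212-3p, had -0.17 and -0.05, and none of these strands was called. The highest value of the list without the block was that of the scarce miR-137-5p, 0.45 ± 0.48 (SE) at 1.57 ± 0.579 CPM in sham. It was not called either.

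**Figure D4:**
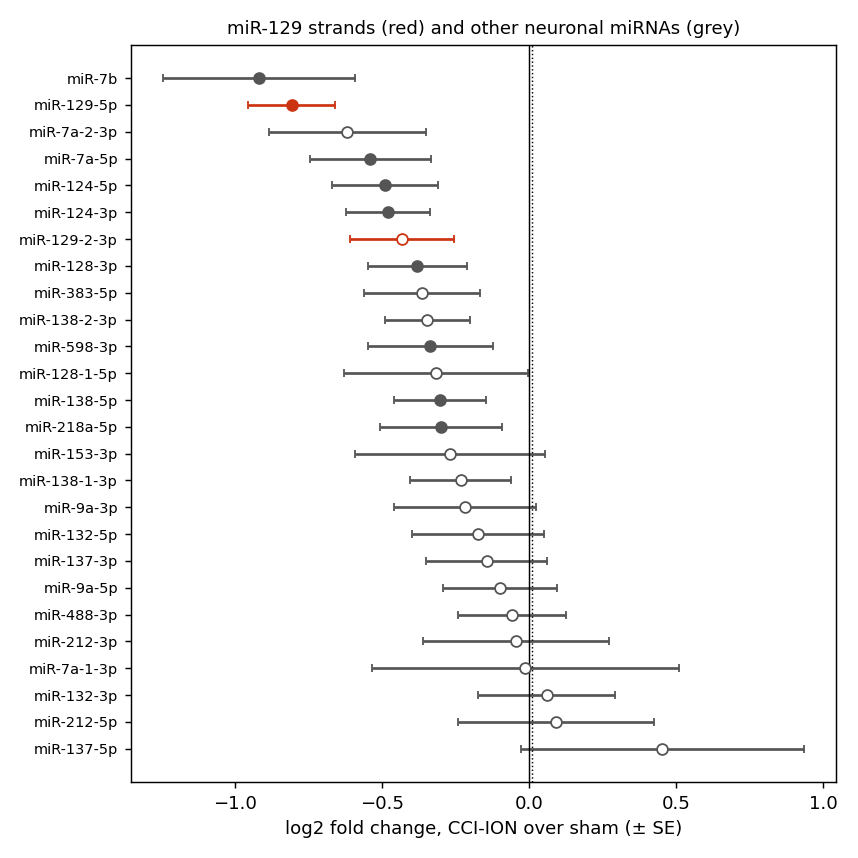
Log2 fold changes, CCI-ION over sham, ± SE from the edgeR fit without the block for the 2 tested miR-129 strands (red) and 24 other neuronal miRNAs (grey), with filled points for an edgeR adjusted p under 0.05 with the block; the dotted line is the median of all 463 miRNAs. miR-129-5p at -0.81 is second from the top after miR-7b, and miR-129-2-3p at -0.43 lies near miR-124-3p at -0.48. The fill of the red points is not read as a test, because miR-129-5p was chosen on this contrast.

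Profiles most like that of miR-129-5p were sought as the smallest root mean square difference in log2 CPM, each miRNA centred on its mean over the 6 libraries. The 5 nearest of the tested miRNAs were miR-874-3p at 0.14, miR-7a-2-3p at 0.16, miR-124-3p at 0.24, the partner strand miR-129-2-3p at 0.24 and miR-128-3p at 0.24, where the median over all was 0.50. All 6 profiles share the libraries and their scaling, and the likeness includes the difference between the groups. The nearest, miR-874-3p, was scarce, with a sham level of 2.93 ± 0.458 CPM and 1.83 ± 0.357 CPM after CCI-ION, as was miR-7a-2-3p at 6.44 ± 0.263 and 4.13 ± 1.20 CPM. Neither was called with or without the block (edgeR adjusted p from 0.124 to 0.496).

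**Figure D5:**
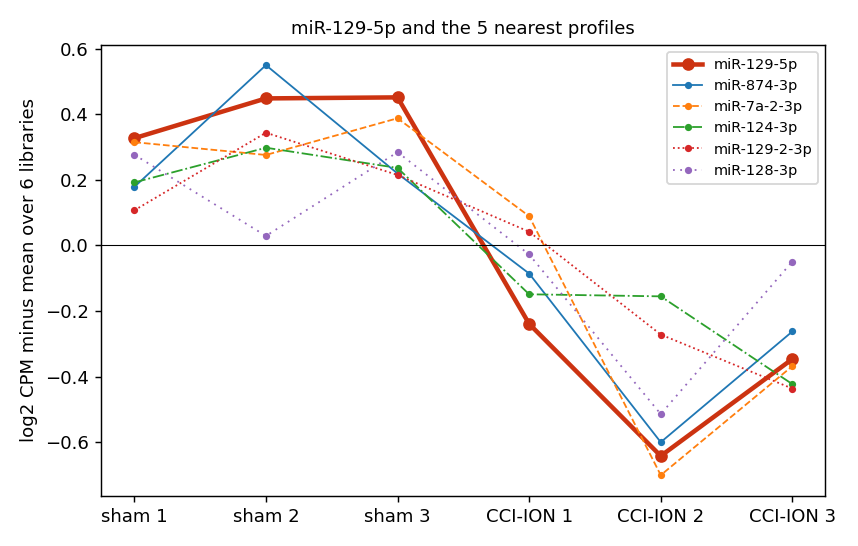
Log2 CPM of miR-129-5p (thick red line) and the 5 miRNAs with the nearest profiles in the 6 libraries, each minus its own mean; lines only join the libraries of a miRNA. miR-129-5p and the nearest miRNA, miR-874-3p, are lowest in CCI-ION library 2, and miR-124-3p and miR-129-2-3p cover a smaller range.

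Markers of other cell types that the dissected tissue can hold were summed in each library. Their members' calls with the block are to be read against 6.05% of all 463 miRNAs called higher and 5.62% called lower, and against 6.7% not overlapping upward and 7.13% downward. The skeletal muscle list (10 rows), led by miR-1b, held 5611 to 11314 CPM in sham and 3689 to 9061 in CCI-ION, so its sums overlapped. Its median log2 fold change was -0.49, with 8 of 8 tested members negative, 2 called lower with the block and 2 not overlapping downward. That median is lower than the -0.29 of the neuronal list, and the difference between the lists was not tested. The leukocyte list (miR-142, miR-223, miR-150, miR-155 and miR-342, 10 rows, led by miR-150-5p) held 281 to 314 CPM in sham and 366 to 394 CPM in CCI-ION, sums that did not overlap. Its median was 0.40, with 1 of 8 tested members negative, 3 called higher with the block and 1 not overlapping upward.

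The glial list (8 rows), led by miR-338-5p, held 9550 to 10790 and 9081 to 10420 CPM. Its median was -0.07, with 1 of 7 tested members called higher, both with the block and without it, where 0.216% of all miRNAs were called higher. Erythroid markers (5 rows, led by miR-486) held 285 to 771 and 408 to 799 CPM, with a median of 0.24 and 0 of 4 tested members called with the block. Epithelial markers (15 rows, led by miR-375-3p) held 363 to 461 and 345 to 431 CPM, with a median of 0.01 and 1 of 10 called higher with the block. The sensory neuron cluster, with overlapping sums, had a median of -0.12 and 0 of 4 tested members called. No row of these lists was at 0 in all libraries. The part of these cell types in the level of miR-129-5p was not tested.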

How the data were processed

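The authors deposited raw counts for 650 mature miRNAs in 6 libraries, and RPM values per library. Reads were handled with cutadapt 1.14 and Bowtie 1.1.1 on rn6, per the submitters' processing notes. No source used here names the counter, its mismatch rule or the annotation. The deposited RPM gave whole reads for 100% of values within 0.01 read, using 1 total per library whose content is not stated. RPM thus holds the same reads as the counts, scaled to another total, and a fit under that scaling is given as an alternative. Counts were tested with edgeR 4.0.16 in R 4.3.3 (quasi-likelihood F test, robust, TMM, filterByExpr, Benjamini-Hochberg adjusted p under 0.05). Groups came from the sample titles. DESeq2 1.42.0 and limma 3.58.1 (voom) were alternatives. Same-number libraries correlated at 0.457 to 0.664 in their deviations from the group means in log2 CPM (prior count 2), other combinations at -0.614 to 0.166, so the numbers were taken as pairing the libraries. What a number stands for is not given. The labels state no pairing, and it was inferred from the same counts that the blocked fits then test. Centring each group on 3 libraries forces some of these correlations to be negative when others are positive, so their contrast is partly built in. Hairpins were folded with RNAfold 2.7.2. The edgeR fits were also run on simulated counts that had no effect of the library number, so that run does not test the pairing.

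Named miRNAs are the members, the neuronal miRNAs called in either fit plus the 2 most abundant, the 5 nearest profiles, the level neighbours in sham and the most abundant member of each other list. miR-132-3p, miR-212-5p, their partner strands, miR-137-5p and the reference miRNAs of the ratios were named after their values were seen. Members and lists were chosen with earlier results of these data known. A permutation test planned for the share of miR-129-1-3p among 3p reads is not reported, because 5 of 6 libraries had 0 reads.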

Additional observations from a re-analysis of the deposited data

How the results depend on the processing

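The log2 fold change of miR-129-5p was negative under all 16 alternatives and moved by less than the replicate SD in 14. It was -1.15 on the RPM scale and -1.16 on that scale with the replicate block, which was added after seeing the data. The median of all miRNAs was then -0.34 and -0.35. Leaving out 1 library gave -0.90 to -0.69. With the replicate block it was -0.95, -0.67 and -0.83 without the libraries numbered 1, 2 and 3. For miR-129-2-3p all 16 were negative too. Its values were -0.79 and -0.78 under those scalings, and -0.58 to -0.32 without 1 library. With the replicate block they were -0.64, -0.34 and -0.34 without the libraries numbered 1, 2 and 3. Summing the 3p rows gave -0.43. Because miR-129-5p was chosen as lower and the groups of neither strand overlapped, a negative sign was built in where libraries were left out. The other alternatives refit the same counts, so the signs are not read as support. The difference in the log2 strand ratio ran from 0.28 to 0.51 over 8 alternatives. Its sign could not change when a library was left out, because the groups did not overlap in this ratio. No support is read from the sign. With the replicate block the difference is the same by construction, 0.37. The ratio with miR-129-1-3p alone could not be computed, because 5 libraries had 0 reads.

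Counts of calls moved more. edgeR without the block called 3 miRNAs, DESeq2 13, edgeR under RPM scaling 6 and without the filter 6, and edgeR without 1 library 1 to 7. The replicate block gave 54, or 45, 31 and 5 without the libraries numbered 1, 2 and 3, and 156 with RPM scaling, of which 6 were higher and 150 lower, against 28 and 26 under TMM. Of the neuronal list DESeq2 called 1. The replicate block called 8, or 6, 3 and 0 without the libraries numbered 1, 2 and 3, and 17 with RPM scaling. The cause of these differences was not tested. Depth limits the 3p strands most, with 152 to 426 reads per library.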
